A study of Mus musculus with 8 samples.

Results

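The miR-148 and miR-152 family of microRNAs was followed across 8 small RNA libraries of immortalized mouse skin fibroblasts. Its members were chosen by name: every microRNA row of the deposited table called mmu-miR-148a, mmu-miR-148b or mmu-miR-152 (mmu for mouse), with either arm. This gave 6 rows, the 3p and 5p arms of each hairpin, of 2403 listed features and 813 listed microRNAs. The 4 groups were KO hypoxia (mir210lox/lox on C57BL/6, 1% O2 for 24 h), KO normoxia (mir210lox/lox, 21% O2 for 24 h), WT hypoxia (C57BL/6, 1% O2 for 24 h) and WT normoxia (C57BL/6, 21% O2 for 24 h), with 2 libraries each, numbered 1 and 2. The genotype label names a floxed allele and states no deletion, the name KO is that of the sample titles, and nothing says whether a genotype was 1 line or several. No label ties the 2 libraries of a group to separate cultures. The p-values below therefore reflect the spread among these libraries alone, and that spread may be technical.

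The values are normalized read counts made by the authors. They summed to 8618630 to 12167438 per library, of which microRNAs took 73.0% to 82.0%. miR-210-3p, the guide arm of the targeted gene, held 10 and 32 in KO hypoxia, 23 and 14 in KO normoxia, 36738 and 39011 in WT hypoxia, and 4786 and 8676 in WT normoxia, so the genotype titles and the measured microRNA go the same way in every library. Of the cell type markers, 15 rows listed for fibroblasts and other mesenchymal cells, led by miR-21-5p, miR-22-3p, miR-143-3p and miR-199a-3p, took 52.9% to 63.7% of all microRNA counts. Most of this was miR-21-5p, at 2268463 to 3246233, while miR-143-3p held 195457 to 500343. How specific these rows are to such cells was not tested.

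A microRNA guides Argonaute proteins to messenger RNAs mainly through its seed, the bases 2 to 8 from its 5′ end, so microRNAs with the same seed can share targets. The miR-148 and miR-152 family is best known as a group of regulators of DNA methyltransferase messages, among them Dnmt1. miR-148a is also known in liver for restraining the low-density lipoprotein receptor and the cholesterol transporter Abca1. From each hairpin the 3p arm is the usual guide strand and the 5p arm the usual passenger strand.

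The mature sequences are shown because the family is defined by them. They are given 5′ to 3′ from RefSeq (GRCm38.p6), in which all 6 members were found, with the seed in capitals.
mmu-miR-148a-3p: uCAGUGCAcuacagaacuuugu
mmu-miR-148b-3p: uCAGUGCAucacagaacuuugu
mmu-miR-152-3p: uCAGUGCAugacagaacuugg
mmu-miR-148a-5p: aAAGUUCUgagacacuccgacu
mmu-miR-148b-5p: gAAGUUCUguuauacacucaggcu
mmu-miR-152-5p: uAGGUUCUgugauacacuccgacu
Of 1679 mature names in RefSeq, 3 carry the guide seed at bases 2 to 8, and these are the 3 guide arms of the family. Counted from 1 at the 5′ end, miR-148b-3p differs from miR-148a-3p at 2 of 22 positions (C9U and U10C, the base of miR-148a-3p first). miR-152-3p differs from miR-148a-3p at 3 of the 21 positions they share (C9U, U10G and U20G). All differences lie outside the seed. The passenger arms of miR-148a and miR-148b share a seed, and that of miR-152 has another. The sources used here do not state how reads matching more than 1 of these near-identical rows were treated, so a part of a member's count could belong to another member.

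The same letters occur 1 base earlier in a neighbouring family. RefSeq holds 7 mature microRNAs that begin with them, and 3 of these are listed in the table, shown with their own bases 2 to 8 in capitals.
mmu-miR-130a-3p: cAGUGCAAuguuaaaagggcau
mmu-miR-130b-3p: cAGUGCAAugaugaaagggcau
mmu-miR-301a-3p: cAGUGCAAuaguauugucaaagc
Their seed is therefore shifted by 1 base against that of the miR-148 and miR-152 family.

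The hairpins are shown with both mature arms in capitals.
Mir148a: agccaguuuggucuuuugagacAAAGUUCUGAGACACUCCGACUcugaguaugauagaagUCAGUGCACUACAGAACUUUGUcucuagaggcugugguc
Mir148b: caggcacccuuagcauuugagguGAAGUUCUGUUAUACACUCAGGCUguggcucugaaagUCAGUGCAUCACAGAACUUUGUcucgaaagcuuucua
Mir152: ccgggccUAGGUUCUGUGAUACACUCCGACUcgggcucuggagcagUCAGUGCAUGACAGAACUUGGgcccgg
In RefSeq GRCm38.p6, Mir148a lies at chr6:51269812-51269910 on the minus strand, and GENCODE places no other gene over it, the nearest being the long non-coding RNA Gm32479 at a distance of 13622 bases. Mir148b lies at chr15:103285125-103285221 on the plus strand, in an intron of Copz1. Mir152 lies at chr11:96850393-96850465 on the plus strand, in an intron of Copz2. Copz1 and Copz2 encode the alternative zeta subunits of the COPI coat, which forms vesicles of the Golgi apparatus, and both are transcribed on the same strand as the microRNA they hold. In the table each member's window is 2 bases longer than its mature sequence.

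The 3 guide arms held most of the family's counts, and their order was the same in every library. mmu-miR-148b-3p was the most abundant, with 6392 and 7388 normalized read counts in KO hypoxia, 4398 and 5463 in KO normoxia, 5332 and 7643 in WT hypoxia, and 5927 and 9081 in WT normoxia. Its mean placed it 74th among the listed microRNAs. mmu-miR-148a-3p, at 91st, held 2743 and 5091 in KO hypoxia, 2910 and 3655 in KO normoxia, 2337 and 5052 in WT hypoxia, and 2403 and 5350 in WT normoxia. The ranges of these 2 arms overlap across libraries, but miR-148b-3p was above miR-148a-3p in 8 of 8. mmu-miR-152-3p, at 186th, held 348 and 721 in KO hypoxia, 432 and 638 in KO normoxia, 503 and 896 in WT hypoxia, and 498 and 873 in WT normoxia, and its range does not overlap that of miR-148a-3p. Counts are not scaled by length, and all the windows are 23 to 26 bases long.

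Among the passenger arms the order was different, since miR-152-5p and miR-148a-5p were close and miR-148b-5p held 12 or fewer in every library. miR-152-5p held 196 and 258 in KO hypoxia, 126 and 188 in KO normoxia, 98 and 298 in WT hypoxia, and 144 and 240 in WT normoxia. miR-148a-5p held 167 and 223 in KO hypoxia, 91 and 208 in KO normoxia, 83 and 195 in WT hypoxia, and 94 and 155 in WT normoxia. miR-152-5p was the higher of the 2 in 7 of 8 libraries, and their ranges overlap within every group. miR-148b-5p, the partner of the most abundant guide, held 10 and 12 in KO hypoxia, 9 and 2 in KO normoxia, 11 and 8 in WT hypoxia, and 12 and 9 in WT normoxia. Treated as a read count, the 2 in KO normoxia number 2 has a 95% exact Poisson interval of 0.242 to 7.22 and the 12 in WT normoxia number 1 one of 6.20 to 21.0, which cover counting error only. All 6 members passed the filter of at least 10 in at least 2 libraries and were tested among 1540 features.

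**Figure D1:**
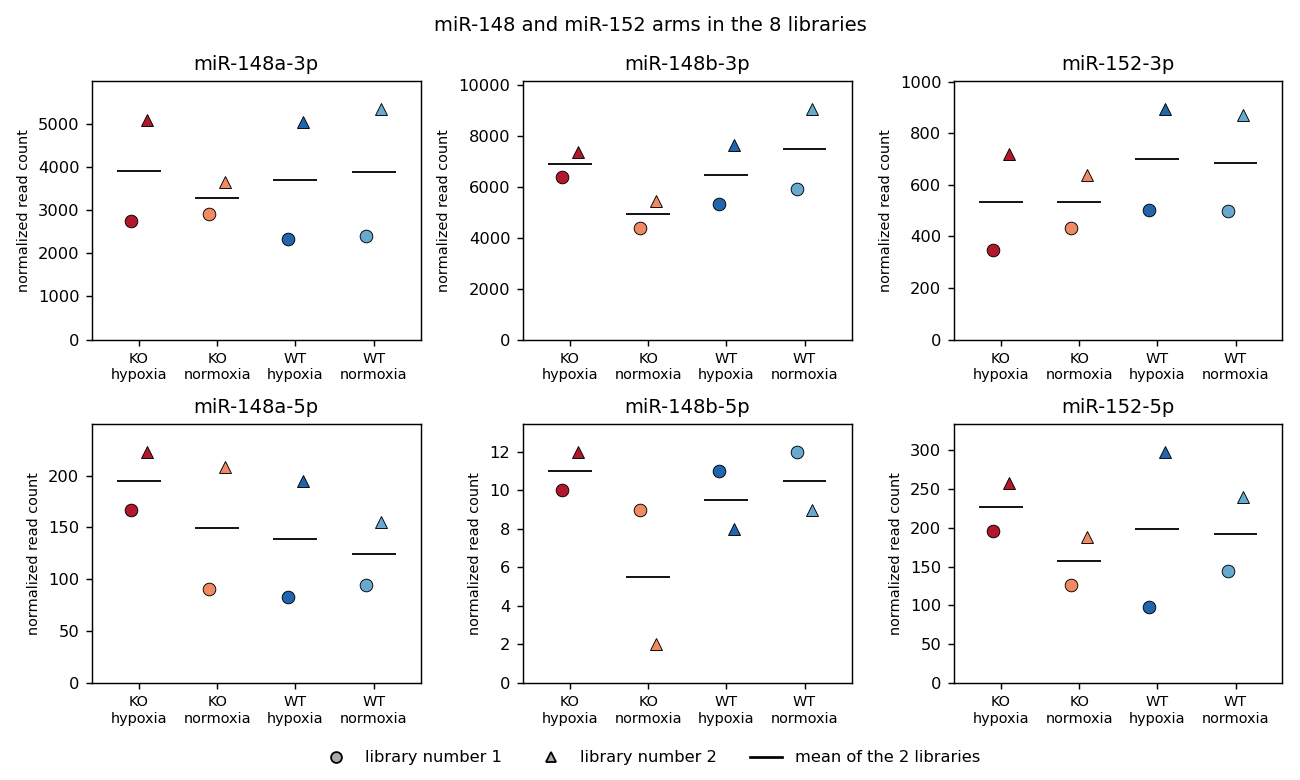
Normalized read counts (y axis, from 0) of the 6 arms in the 4 groups (x axis), with a circle for library number 1, a triangle for number 2 and a line for their mean. miR-148a-3p and miR-152-3p are higher in every triangle than in any circle, at 3655 to 5350 against 2337 to 2910 and at 638 to 896 against 348 to 503.

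The clearest split within the family ran between the library numbers, not between the study's groups. miR-148a-3p held 3655 to 5350 in the 4 libraries numbered 2 and 2337 to 2910 in the 4 numbered 1. miR-152-3p held 638 to 896 in those numbered 2 and 348 to 503 in those numbered 1. Neither arm overlapped between the numbers, and the other 4 arms did. On the log2 scale the mean of number 2 minus that of number 1 was 0.88 for miR-148a-5p, 0.87 for miR-148a-3p, 0.82 for miR-152-5p, 0.81 for miR-152-3p, 0.41 for miR-148b-3p and -0.57 for miR-148b-5p. The median was 0.0070 over the 1540 features and 0.20 over the 579 microRNAs tested. Features higher in all 4 number 2 libraries made up 7.01% of those tested and 13.3% of microRNAs, and features lower in all 4 made up 5.58% and 2.42%.

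The normalized totals of the libraries split by number as well. The normalized totals were 10324869 to 12167438 in the libraries numbered 2 and 8618630 to 9928948 in those numbered 1. They are sums of normalized counts, and depth before normalization is unknown. Per 1000000 microRNA counts of a library, miR-148a-3p held 461 to 578 in number 2 and 300 to 448 in number 1, and miR-152-3p held 80.5 to 94.4 in number 2 and 49.4 to 66.5 in number 1, so the numbers did not overlap on that scale either. The summed fibroblast and mesenchymal markers held 4959821 to 5612790 in number 2 and 3435811 to 4482439 in number 1. These sums are not scaled to the totals. The share of microRNAs in a library overlapped between the numbers, at 76.7% to 82.0% in number 2 and 73.0% to 78.8% in number 1. The labels do not say what the numbers stand for, and the part of any batch in this split was not tested.

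**Figure D2:**
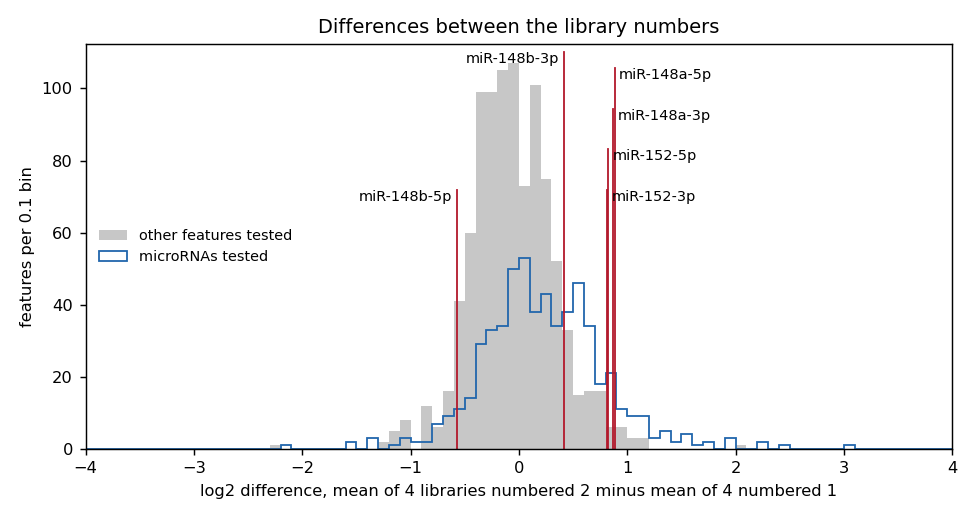
Histogram (features per bin of 0.1) of the log2 difference between the mean of the 4 libraries numbered 2 and the mean of the 4 numbered 1, for the microRNAs tested (blue outline) and the other features tested (grey). Red lines mark the members: 4 of the 6 arms lie between 0.81 and 0.88, miR-148b-3p at 0.41 and miR-148b-5p at -0.57.

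Within KO cells, no member of the family passed the test between hypoxia and normoxia (limma, 0 of 6 at an adjusted p under 0.05 over the 1540 features, a background of 0%). The largest difference of a guide arm was that of miR-148b-3p, which averaged 6890 ± 704 in KO hypoxia and 4930.5 ± 753 in KO normoxia (SD, n = 2), a log2 difference of 0.49 (SE 0.31, adjusted p = 0.883). Within number 1 and number 2 it was 0.54 and 0.44. miR-148a-3p averaged 3917 ± 1660 in KO hypoxia and 3282.5 ± 527 in KO normoxia, a difference of 0.20 (SE 0.49, adjusted p = 0.999). miR-152-3p averaged 534.5 ± 264 in KO hypoxia and 535 ± 146 in KO normoxia, a difference of -0.067 (SE 0.45, adjusted p = 0.999) whose sign turned under quantile normalization. Differences of the passenger arms were 0.54 for miR-152-5p, 0.48 for miR-148a-5p and 1.13 for miR-148b-5p (SE 0.51, 0.51 and 0.66). The last rests on the count of 2 in KO normoxia number 2, since within number 1 it was 0.14 and within number 2 it was 2.12.

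In KO cells 3 members, miR-148b-3p, miR-148b-5p and miR-152-5p, were higher in both hypoxia libraries than in either normoxia library, and 15.8% of all features did the same. No member was lower in both, against 13.1% of all features. Of the 6 members, 5 had a difference above 0, with a median of 0.49, where the median was 0.016 over all features and 0.24 over microRNAs. No member had an unadjusted p under 0.05, while 83 of 1540 features did.

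Within WT cells the difference between hypoxia and normoxia was smaller than the spread between libraries for every member (limma, 0 of 6 past the test, background 0%). miR-148b-3p averaged 6487.5 ± 1634 in WT hypoxia and 7504 ± 2230 in WT normoxia (SD, n = 2), a log2 difference of -0.20 (SE 0.31). miR-148a-3p averaged 3694.5 ± 1920 in WT hypoxia and 3876.5 ± 2084 in WT normoxia (-0.061, SE 0.49). miR-152-3p averaged 699.5 ± 278 in WT hypoxia and 685.5 ± 265 in WT normoxia (0.026, SE 0.45, and below 0 under quantile normalization or scaling to the microRNA total). The adjusted p was 1.00 for all 6 arms. Within each library number these guides lay close together, at -0.040 and -0.083 for miR-148a-3p, -0.15 and -0.25 for miR-148b-3p, and 0.014 and 0.037 for miR-152-3p.

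In WT cells the guide arms thus differed less between oxygen levels at the same number than between numbers of the same group. The log2 gap between the 2 libraries of a WT group was 1.11 in hypoxia and 1.15 in normoxia for miR-148a-3p, 0.52 and 0.62 for miR-148b-3p, and 0.83 and 0.81 for miR-152-3p. For miR-148a-3p, the 95% interval of the fitted WT hypoxia difference ran from -1.15 to 1.03. It ran from -0.90 to 0.50 for miR-148b-3p and from -0.99 to 1.04 for miR-152-3p. These intervals are not adjusted over the 1540 features and keep the split by library number in their spread. With library number added to the fit as a block, the SE was 0.26, 0.22 and 0.24 in the same order. How small a change the test could detect was not tested. In WT cells 0 of 6 members were higher, and 0 lower, in both hypoxia libraries than in either normoxia library, against 14.4% and 11.4% of all features.

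**Figure D3:**
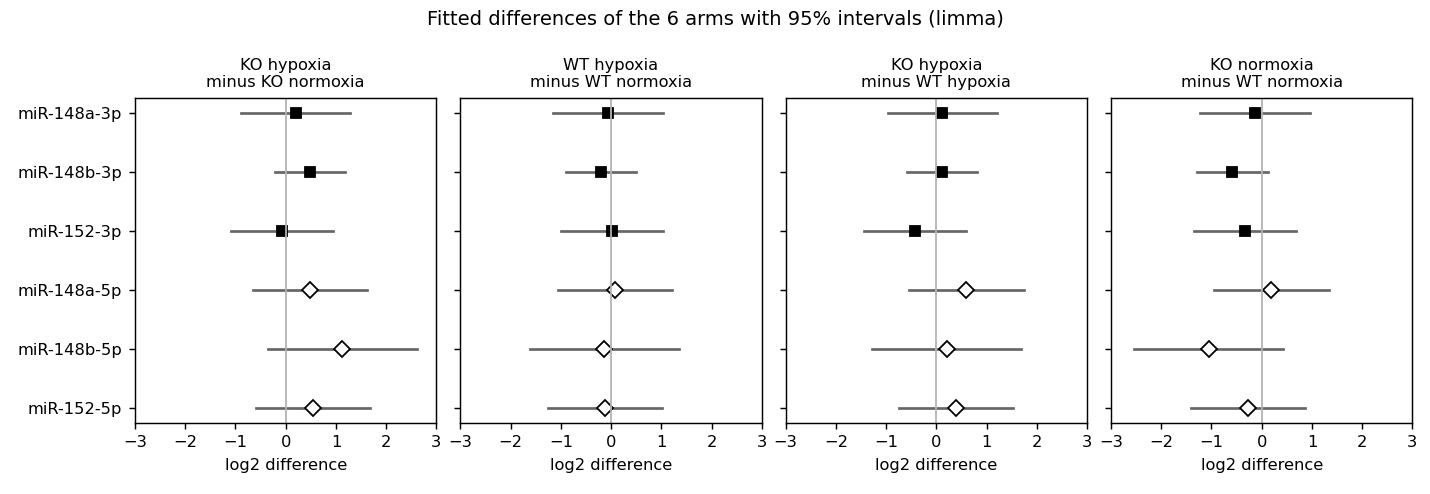
Fitted log2 differences (x axis) of the 6 arms (y axis) in the 4 pairwise comparisons, with 95% intervals from limma. Filled squares are 3p arms and open diamonds 5p arms, and every interval crosses 0.

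In normoxia, KO cells held less miR-148b-3p than WT cells in both libraries, without passing the test. It averaged 4930.5 ± 753 in KO normoxia and 7504 ± 2230 in WT normoxia (SD, n = 2), a log2 difference of -0.58 (SE 0.31, limma adjusted p = 0.462), with -0.43 within number 1 and -0.73 within number 2. It was -0.27 without WT normoxia number 2, -0.89 without WT normoxia number 1 and -0.34 after scaling to the microRNA total. Its adjusted p was the smallest of any member in the pairwise comparisons. miR-148b-3p was the only member whose groups did not overlap here, and 20.0% of all features were lower in KO in the same way, while 21.9% were higher. miR-152-3p averaged 535 ± 146 in KO normoxia and 685.5 ± 265 in WT normoxia (-0.33, SE 0.45). miR-148a-3p averaged 3282.5 ± 527 in KO normoxia and 3876.5 ± 2084 in WT normoxia (-0.14, SE 0.49), and its difference was 0.28 within number 1, -0.55 within number 2 and 0.10 after scaling to the microRNA total.

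Of the passenger arms in normoxia, miR-152-5p differed by -0.27 (SE 0.51), miR-148a-5p by 0.19 (SE 0.51) and miR-148b-5p by -1.06 (SE 0.66), the last being -0.38 within number 1 and -1.74 within number 2. In all, 5 of the 6 members were lower in KO normoxia than in WT normoxia, with a median of -0.30, beside medians of -0.064 over all features and -0.28 over microRNAs. The members' median thus lay close to that of all microRNAs. None of the 6 was called, against 0.0649% of the features tested.

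In hypoxia, no member passed the test between KO and WT cells, and miR-148b-3p overlapped between them (limma, 0 of 6, background 0.130%). miR-148b-3p averaged 6890 ± 704 in KO hypoxia and 6487.5 ± 1634 in WT hypoxia (SD, n = 2), a difference of 0.11 (SE 0.31, adjusted p = 0.974). miR-148a-3p averaged 3917 ± 1660 in KO hypoxia and 3694.5 ± 1920 in WT hypoxia (0.12, SE 0.49). miR-152-3p averaged 534.5 ± 264 in KO hypoxia and 699.5 ± 278 in WT hypoxia (-0.42, SE 0.45), with -0.53 within number 1 and -0.31 within number 2. For miR-148a-5p the difference was 0.60 (SE 0.51) and for miR-152-5p 0.39 (SE 0.51), but within number 1 these were 1.00 and 0.99 and within number 2 0.19 and -0.21. None of the 6 was higher or lower in both KO libraries, against 19.2% and 16.6% of all features.

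The interaction compared the hypoxia change of KO cells with that of WT cells. For miR-148b-3p it was 0.69 (SE 0.44), a difference of 0.49 in KO less one of -0.20 in WT, and it ran from 0.38 without WT normoxia number 2 to 1.00 without WT normoxia number 1. For miR-148a-3p it was 0.26 (SE 0.69) and for miR-152-3p -0.093 (SE 0.64, 0.032 after quantile normalization). All 6 members had an adjusted p of 1.00 (limma), and 0% of the features tested were called. Averaged over both oxygen levels, KO minus WT was -0.24 (SE 0.22) for miR-148b-3p, -0.37 (SE 0.32) for miR-152-3p and -0.0078 (SE 0.34) for miR-148a-3p. With 1 library left out, the value for miR-148b-3p ran from -0.39 (without WT normoxia number 1) to -0.084 (without WT normoxia number 2). That for miR-152-3p ran from -0.64 (without KO hypoxia number 2) to -0.11 (without KO hypoxia number 1). None of the 6 members passed in this comparison (limma, smallest adjusted p = 0.659, background 0.130%). After scaling to the microRNA total the values of the 3 guide arms were -0.042, -0.18 and 0.19 in the same order. Under that scaling again no member passed (smallest limma adjusted p = 0.449, for miR-148a-5p), while 85 of 1540 features did. Averaged over both genotypes, hypoxia minus normoxia lay between -0.021 and 0.50 over the 6 arms, with no call (limma adjusted p = 0.998 for each, background 0%). No member separated all 4 KO from all 4 WT libraries, which 8.38% of features did upward and 3.51% downward, nor all 4 hypoxia from all 4 normoxia libraries, which 0.519% did upward and 0.714% downward.

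Ratios between members of the same library do not depend on a scaling factor per library, so the make-up of the family was compared by them. miR-148b-3p gave 56.0% to 67.4% of the sum of the 3 guide arms in a library, miR-148a-3p 27.2% to 38.6% and miR-152-3p 3.67% to 6.59%. The ratio of miR-148a-3p to miR-152-3p was 7.88 and 7.06 in KO hypoxia, 6.74 and 5.73 in KO normoxia, 4.65 and 5.64 in WT hypoxia, and 4.83 and 6.13 in WT normoxia. On the log2 scale it averaged 2.76 ± 0.19 in KO and 2.40 ± 0.19 in WT libraries (SD, n = 4 each), a difference of 0.37 (exact two-sided permutation test, p = 0.0571, adjusted p = 0.686 over 12 tests). Of these 12 tests (3 guide pairs and 3 arm pairs, by genotype and by oxygen) none had a p under 0.05, where 4 libraries against 4 allow 0.0286 at the lowest. A test alone at that floor could not pass after adjustment over the 12. Most of them would have to reach it together, so a lack of passes tells little.

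The ratio of miR-148a-3p to miR-148b-3p stood at 0.589 to 0.689 in 5 libraries and at 0.405 to 0.438 in the other 3, namely KO hypoxia number 1, WT hypoxia number 1 and WT normoxia number 1. On the log2 scale KO minus WT was 0.23 (exact permutation p = 0.257) and hypoxia minus normoxia -0.076 (p = 0.943). For miR-148b-3p over miR-152-3p these differences were 0.14 and 0.16 (exact permutation test, adjusted p = 0.904 for each).

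Arm usage differed widely between the hairpins. No difference between the groups passed the test, which by the floor given above could hardly pass. The 5p arm made up 16.3% to 36.0% of both arms of miR-152, 2.82% to 5.74% of those of miR-148a and 0.0366% to 0.206% of those of miR-148b. For miR-152 the 5p share was 36.0% and 26.4% in KO hypoxia, 22.6% and 22.8% in KO normoxia, 16.3% and 25.0% in WT hypoxia, and 22.4% and 21.6% in WT normoxia. The highest share and the lowest were thus those of the number 1 hypoxia libraries of the 2 genotypes. In KO minus WT the log2 ratio of 3p to 5p differed by -0.44 for miR-152 (exact permutation p = 0.143), by -0.40 for miR-148a (p = 0.200) and by 0.19 for miR-148b (adjusted p = 0.904, and -0.048 with a pseudocount of 8). In hypoxia minus normoxia it differed by -0.23, -0.21 and -0.35 (exact permutation test, adjusted p = 0.904 for each).

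**Figure D4:**
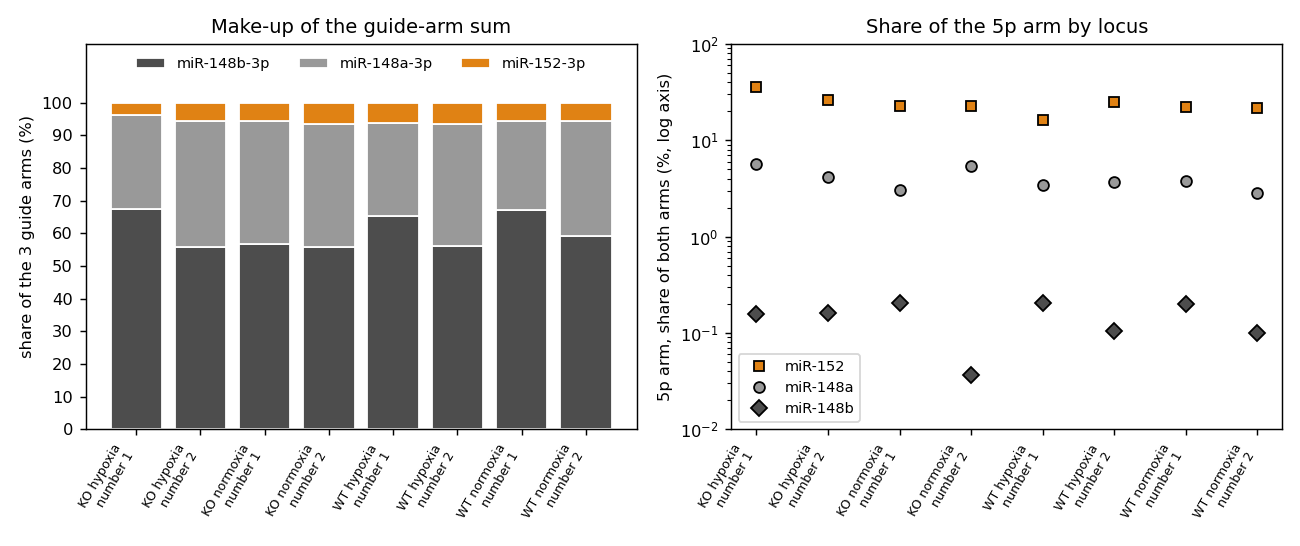
Left, the share (%) of each guide arm in the sum of the 3 guide arms, by library (x axis). Right, the 5p arm as a share (%, log axis) of both arms of each hairpin, which is highest for miR-152 (16.3% to 36.0%) and lowest for miR-148b (0.0366% to 0.206%).

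The table lists the Mir148a hairpin a second time, as an Ensembl transcript (ENSMUST00000083571) with the whole sequence printed above. It lies outside the naming rule and was taken up after its values were seen. This row held 26 and 74 in KO hypoxia, 52 and 63 in KO normoxia, 280 and 105 in WT hypoxia, and 413 and 219 in WT normoxia. All 4 KO libraries were below all 4 WT libraries, as they were for 3.51% of the features tested. Averaged over both oxygen levels, KO minus WT was -2.16 (SE 0.41, limma adjusted p = 0.0704, 8 of 1540 features having a smaller p), which did not pass. After scaling to the microRNA total it was -1.96 and passed (adjusted p = 0.0157), and without WT hypoxia number 2 or KO hypoxia number 2 it also passed (-2.51 and -2.52, adjusted p = 0.0360 and 0.0473). In all, 4 of 18 alternatives called the row, with adjusted p from 0.0157 to 0.361, the highest without WT normoxia number 1.

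By oxygen level, the hairpin row differed by -2.37 (SE 0.58, adjusted p = 0.324) in normoxia and -1.94 (SE 0.58, adjusted p = 0.493) in hypoxia between KO and WT. Within number 1 and number 2, the normoxia difference was -2.97 and -1.78. The hypoxia difference was -3.38 and -0.50. For each read of the hairpin row there were 106 and 68.8 of miR-148a-3p in KO hypoxia, 56.0 and 58.0 in KO normoxia, 8.35 and 48.1 in WT hypoxia, and 5.82 and 24.4 in WT normoxia, so this ratio was higher in every KO library than in any WT library. It largely restates the split of the hairpin row, since KO minus WT of miR-148a-3p was -0.0078 over both oxygen levels. The table holds 66 such Ensembl rows of type microRNA, of which 9 were tested, and the other 8 had a median KO minus WT of -0.12 (2 above 0, 6 below). The sources used here do not state how reads were divided between a hairpin row and the rows of its arms, so the row cannot be read as a precursor level.

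**Figure D5:**
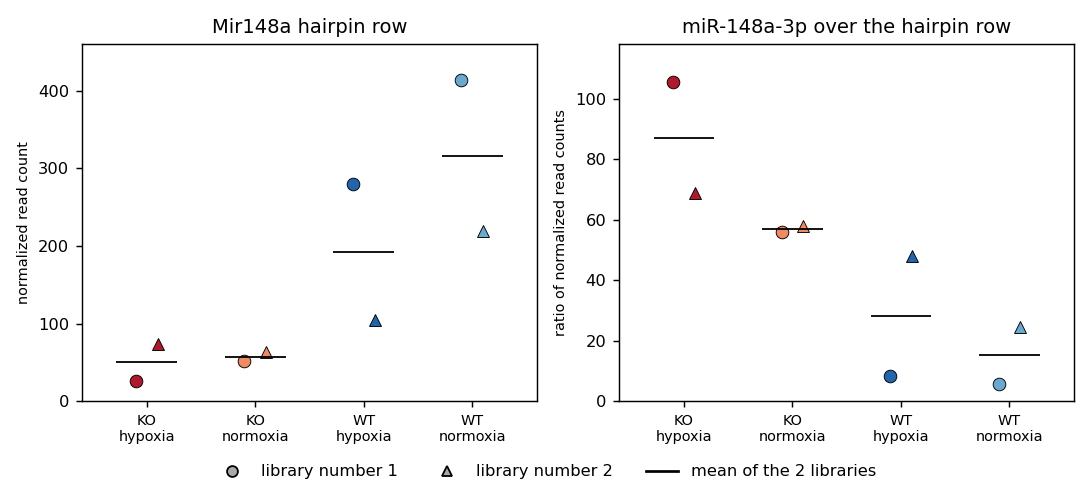
Left, normalized read counts (y axis, from 0) of the Mir148a hairpin row in the 4 groups, and right, the ratio of miR-148a-3p to that row, with circles for library number 1, triangles for number 2 and lines for means. The hairpin row lies at 26 to 74 in KO libraries and at 105 to 413 in WT libraries.

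The microRNAs most like each guide across the 8 libraries were found by Pearson's r of log2(value + 1) among the other 578 microRNAs tested, as a description. For miR-148a-3p they were miR-101a-3p (r = 0.974), miR-139-5p (0.966), miR-542-3p (0.965), miR-103-3p (0.955) and miR-107-3p (0.947). miR-101a-3p held 1445 and 4129 in KO hypoxia, 1591 and 3034 in KO normoxia, 1455 and 4200 in WT hypoxia, and 1606 and 4611 in WT normoxia. For miR-152-3p they were miR-335-5p (0.986), miR-574-3p (0.975), miR-1843-5p (0.971), miR-378-5p (0.968) and the mesenchymal microRNA miR-143-3p (0.967). For miR-148b-3p they were miR-345-5p (0.925), miR-9-3p (0.925), miR-24-1-5p (0.923), miR-1930-5p (0.918) and miR-450a-5p (0.915). Of these 15 microRNAs 12 were higher in all 4 libraries numbered 2 than in any numbered 1, as were 13.3% of all microRNAs tested. They were picked by likeness to the guides over these same libraries, so a shared split by number follows from the choice.

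Members were not each other's nearest neighbours in this measure. Ranked by likeness to miR-148a-3p, miR-152-5p came 30th (r = 0.876), miR-152-3p 38th (0.860), the partner arm miR-148a-5p 82nd (0.763) and miR-148b-3p 83rd (0.762) of 578. The 2 arms of miR-152 had r = 0.664. The 8 libraries share their groups and numbers, so these values are not independent evidence of a relation.

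Other microRNAs described as acting on Dnmt messages were taken by name with both arms, so a row need not be the arm so described. Outside the family they were 21 rows from miR-29, miR-101, miR-126, miR-140, miR-143, miR-185 and miR-342, of which 20 were tested. In normoxia 20 of 20 were lower in KO than in WT, with a median of -0.35 beside -0.28 for all microRNAs. Scaling to the microRNA total moved the median of all features in this comparison from -0.064 to 0.17. How many of the 20 rows stayed below 0 under that scaling was not tested. None passed in any comparison (limma), where between 0% and 0.130% of all features did, so a count of 0 tells nothing about the list. Their most abundant members were miR-143-3p (-0.60, SE 0.45), miR-29a-3p (-0.095, SE 0.30), miR-140-5p (-0.66, SE 0.33) and miR-140-3p (-0.29, SE 0.41), each a log2 difference of KO minus WT in normoxia. Between KO hypoxia and KO normoxia their median was 0.15, where it was 0.49 for the miR-148 and miR-152 members and 0.24 for all microRNAs.

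microRNAs described as acting on cholesterol uptake and efflux, again taken by name with both arms, were 23 rows, of which 19 were tested. Their median was 0.48 between KO hypoxia and KO normoxia (15 of 19 above 0), beside 0.24 for all microRNAs. It was -0.33 between KO normoxia and WT normoxia (14 of 19 below 0), beside -0.28 for all microRNAs. None passed in any comparison (limma, background 0% to 0.130%). The most abundant were miR-26a-5p, miR-27a-3p, miR-106b-5p and miR-27a-5p, with KO hypoxia differences of 0.25, 0.48, 0.75 and -0.11 (SE 0.41, 0.46, 0.25 and 0.30). The miR-130 and miR-301 family, whose seed is shifted by 1 base, had 6 of 8 rows tested, 0 calls and medians of 0.41 between KO hypoxia and KO normoxia and -0.086 between KO normoxia and WT normoxia. Its main member miR-130a-3p held 787 and 724 in KO hypoxia, 711 and 804 in KO normoxia, 822 and 1008 in WT hypoxia, and 671 and 873 in WT normoxia.

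Markers of other cell types were low. The summed microRNA share was 0.00142% to 0.00325% for 7 epithelial rows, 0.0119% to 0.0394% for 6 haematopoietic rows, 0.00129% to 0.00207% for 2 endothelial rows, 0.00142% to 0.00383% for 5 muscle rows, 0.0112% to 0.0132% for 8 neural and melanocyte rows and 0.0180% to 0.0285% for 7 hepatocyte and gut rows. Of these rows 5 epithelial, 4 haematopoietic, 2 endothelial, 3 muscle, 4 neural and melanocyte, and 4 hepatocyte and gut rows were tested. No tested marker row passed in any comparison (limma), where between 0% and 0.130% of all features did. A count of 0 therefore tells nothing about the markers. Of the listed rows, 0 were at 0 in every library. The haematopoietic sum, mostly miR-451, was 841 and 1550 in KO hypoxia, 2245 and 1025 in KO normoxia, 3078 and 1579 in WT hypoxia, and 2367 and 2298 in WT normoxia. The epithelial sum, mostly miR-205-5p, was 236 to 290 in the libraries numbered 2 and 100 to 150 in those numbered 1. It so split as miR-148a-3p and miR-152-3p did, but its part in that split was not tested. miR-205-5p held 159 to 230 in number 2 and 53 to 116 in number 1. The numbers met at 17 for miR-200a-3p (17 to 28 and 9 to 17). They overlapped for miR-200c-3p (8 to 19 and 6 to 12) and miR-203-3p (9 to 15 and 4 to 16).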

How the data were processed

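Small RNA was sequenced from 8 libraries of mouse fibroblasts. Per the labels' protocols, RNA was extracted with miRNeasy and made into SOLiD libraries with NEBNext small RNA reagents. The deposited table gives a score per feature, a normalized read count in whole numbers made by the authors. Trimming, alignment, the genome build and the normalization are not stated in the sources used here. The coordinates of the member rows differ from those of GRCm38, so RefSeq GRCm38.p6 positions are printed. Depth before normalization is unknown.

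Features with at least 10 in at least 2 libraries were tested with limma 3.58.1 (R 4.3.3, intensity trend) on log2(value + 1), with 4 group means, 4 residual and 5.64 prior degrees of freedom, and Benjamini-Hochberg adjustment over 1540 features. A difference on this scale understates the change of low rows. Ratios were tested by exact permutation in Python 3.11.15. Means are ± SD, differences have the standard error of the fit, and the fit was tested on simulated data.

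The members and lists were chosen with earlier results of these data known. Named were all members, the 5 microRNAs most like each guide, up to 4 abundant members of each list and any past the threshold. The Mir148a hairpin row falls outside this rule.

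Alternatives were a pseudocount of 0.5 or 8, dropping the filter, requiring a mean of 50 or more, 3 scalings, no trend, the replicate number as a block, the compared groups alone, microRNAs alone, and leaving out each library.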

Additional observations from a re-analysis of the deposited data

Results flagged for a closer look

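In KO libraries the log2 ratio of miR-148a-3p to miR-148b-3p was -1.22 in KO hypoxia number 1, and -0.60 to -0.54 in the other 3, a gap of 0.914 of the whole range. The value was picked out because its distance from the nearest library exceeded Dixon's 95% critical value for 4 samples. Of 24 groups of 4 libraries examined in this way 1 was picked out, and chance gives about 1 in 20. The WT libraries numbered 1 held similarly low ratios of 0.438 in hypoxia and 0.405 in normoxia.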

How the results depend on the processing

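No member passed the limma test in any of the 7 comparisons under any alternative (0 of 773 member values). The smallest limma adjusted p was 0.172, for miR-148b-3p between KO and WT normoxia with library number entered as a blocking term. Of the 12 ratio tests 0 passed under any alternative. By the floor given above they could hardly pass, so this tells little about how the ratios depend on the processing. Same-numbered libraries deviated together (r from 0.15 to 0.55 between groups), but no label says that numbers pair samples; with the replicate block the features called were 91 in place of 2 for KO minus WT over both oxygen levels, 8 in place of 0 for WT hypoxia and 3 in place of 0 for hypoxia over both genotypes, with 0 members among them, and the Mir148a hairpin row was called (adjusted p = 0.0169). Its KO minus WT mean lay between -2.52 and -1.79 over 18 alternatives (adjusted p 0.0157 to 0.361), 4 of which called it. Over both oxygen levels, KO minus WT had 85 calls when scaled to the microRNA total, 29 without WT hypoxia replicate 2 and 4 without KO hypoxia replicate 2, in place of 2. Of these calls 81, 25 and 1 were higher in KO, as were 78 of the 91 under the block and 0 of the 2. WT hypoxia had 1 call in place of 0 with a pseudocount of 8 or a mean of at least 50, and KO minus WT in normoxia had 2 in place of 1 with no intensity trend or without WT hypoxia replicate 2. Scaling to the microRNA total moved the median of all features to 0.17 for KO minus WT in normoxia, 0.11 in hypoxia and -0.13 for hypoxia in KO.

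These values changed sign under another scaling or pseudocount, and the cause was not tested. Under quantile normalization miR-152-3p gave 0.020 for hypoxia in KO, -0.012 for hypoxia in WT, 0.032 for the interaction and 0.0037 for hypoxia over both genotypes, miR-148a-3p gave 0.036 and miR-152-5p -0.0093 for KO minus WT over both oxygen levels. Scaled to the microRNA total, miR-152-3p gave -0.036 for hypoxia in WT, and miR-148a-3p gave 0.10 for KO minus WT in normoxia, 0.19 over both oxygen levels and -0.036 for hypoxia over both genotypes. With a pseudocount of 8 the ratio of miR-148b-3p to miR-148b-5p gave -0.048 for KO minus WT.

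Leaving out 1 library at a time turned the sign at least once for 40 of 69 results. For hypoxia in KO the values ran from -0.25 to 0.64 for miR-148a-3p, -0.59 to 0.46 for miR-152-3p, -0.11 to 1.08 for miR-148a-5p and -1.11 to 0.36 for the hairpin row. For hypoxia in WT they ran from -0.51 to 0.11 for miR-148b-3p, -0.64 to 0.52 for miR-148a-3p, -0.39 to 0.44 for miR-152-3p, -0.92 to 0.68 for miR-152-5p, -0.54 to 0.69 for miR-148a-5p and -0.34 to 0.074 for miR-148b-5p. For KO minus WT in normoxia they ran from -0.71 to 0.44 for miR-148a-3p, -0.73 to 0.076 for miR-152-3p, -0.64 to 0.096 for miR-152-5p and -0.40 to 0.78 for miR-148a-5p. For KO minus WT in hypoxia they ran from -0.15 to 0.37 for miR-148b-3p, -0.43 to 0.68 for miR-148a-3p, -0.95 to 0.10 for miR-152-3p, -0.40 to 1.19 for miR-152-5p, -0.015 to 1.21 for miR-148a-5p and -0.0050 to 0.41 for miR-148b-5p. Interactions ran from -0.32 to 0.83 for miR-148a-3p, -0.62 to 0.43 for miR-152-3p, -0.13 to 1.46 for miR-152-5p, -0.20 to 1.02 for miR-148a-5p and -0.30 to 1.17 for the hairpin row. Values that kept their sign but moved by over 1.5 times include those of miR-148b-3p, which ran from -0.89 to -0.27 for KO minus WT in normoxia. Over both oxygen levels KO minus WT ran from -0.30 to 0.28 for miR-148a-3p, -0.34 to 0.46 for miR-152-5p and -0.86 to 0.0066 for miR-148b-5p. Over both genotypes hypoxia minus normoxia ran from -0.011 to 0.30 for miR-148b-3p, -0.22 to 0.36 for miR-148a-3p, -0.28 to 0.24 for miR-152-3p, -0.19 to 0.61 for miR-152-5p and -0.025 to 0.59 for miR-148a-5p. Log2 ratios in hypoxia minus normoxia ran from -0.24 to 0.035 for miR-148a-3p over miR-148b-3p, -0.028 to 0.23 for miR-148a-3p over miR-152-3p, -0.064 to 0.30 for miR-148b-3p over miR-152-3p, -0.62 to 0.068 for the arms of miR-148b and -0.50 to 0.012 for those of miR-152. In KO minus WT they ran from -0.095 to 0.27 for miR-148b-3p over miR-152-3p and -0.26 to 0.43 for the arms of miR-148b. With 2 libraries a group the intervals given above are wide, and they are not adjusted over the features tested. They therefore set no limit of detection, which was not tested. Counts near 10 limit miR-148b-5p.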
